A study of Mus musculus with 4 samples.

Results

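The genes described are 10 tetraspanins that are common on extracellular vesicles, Cd9, Cd63, Cd81, Cd82, Cd151, Tspan3, Tspan4, Tspan6, Tspan9 and Tspan31. Their transcripts were read from every probe that the platform annotation assigns to 1 of these symbols, which gave 17 probes of the 25697 on each array, for 10 of the 16593 genes with a symbol. The rule that names the members uses no measured value, but they were chosen with earlier results of these data known. There were 4 bead arrays, 2 of fibroblasts given microvesicles and 2 of control fibroblasts. Both groups were NIH-3T3, an immortalized line of mouse embryonic fibroblasts, grown in Claycomb medium, a medium made for cardiomyocytes. The microvesicles had been purified from medium that cultured cardiomyocytes had conditioned. The dose and the duration of the exposure are not given in the sources used here, and neither is whether the replicates were separate cultures. A p-value here therefore covers how much these arrays differed, and that spread can be technical. The question was how expression in fibroblasts differed once they had received the vesicles.

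Tetraspanins are small proteins that cross the membrane several times and gather integrins, proteases and immunoglobulin-family partners into patches of the membrane. They are enriched on exosomes and on vesicles shed from the plasma membrane, and CD9, CD63 and CD81 are the proteins most often used to detect such vesicles. CD63 cycles between the cell surface, late endosomes and lysosomes, whereas CD9, CD81, CD82 and CD151 lie mostly at the cell surface. The arrays measured the transcripts of the recipient fibroblasts in total RNA and not the proteins on the vesicles. RNA that arrived with the vesicles and RNA made by the fibroblasts cannot be told apart in these samples, and neither can fewer cells and less RNA per cell.

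The arrays differed in brightness before any scaling. The 95th percentile of the deposited signal, which averages the brightness over all beads that carry a probe, was 75.1 and 59.6 on the microvesicle arrays and 76.2 and 115 on the control arrays, given for replicates 1 and 2 of each group here and below. A probe was taken as detected where its deposited detection p, which sets its brightness against that of the negative controls, was under 0.05. By that limit 4875 and 3757 probes were detected on the microvesicle arrays and 4385 and 5272 on the control arrays. Of 17 fibroblast markers on the array, 10 were detected on all 4 arrays, among them Col1a2, Col3a1, Sparc, Vim and Thy1, while Col1a1 was detected on none. Of 33 cardiomyocyte markers on the array, 4 and 2 were detected on the microvesicle arrays and 4 and 6 on the control arrays. Summed over all their probes, their normalized levels were 132 and 149 with microvesicles and 153 and 151 in controls. These sums were on a linear scale without the offset. Nppa, Nppb and Actc1 were detected on no array. Of the cardiomyocyte markers, 4 had a probe in the test. These were Tnnc1, detected on all 4 arrays, and Des, Ldb3 and Eno3, detected on both control arrays and on no microvesicle array. No endothelial marker and 1 macrophage and leukocyte marker had a probe in the test. The groups also lay at different positions on a single chip, so that position and treatment cannot be told apart.

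Of the 10 genes, 5 could be measured. A probe entered the test where both arrays of at least 1 group detected it, which held for 7 of the 17 tetraspanin probes and, among all probes on the array, for 14.6%. These 7 probes belonged to Cd9, Cd63, Cd81, Cd151 and Tspan6, with 3 of them for Cd63. Of the 17 probes, 6 were detected on all 4 arrays, 3 on some and 8 on none, against 9.57% on all 4 and 69.2% on none among all probes. Cd82, Tspan3, Tspan4, Tspan9 and Tspan31 had no probe in the test.

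**Figure D1:**
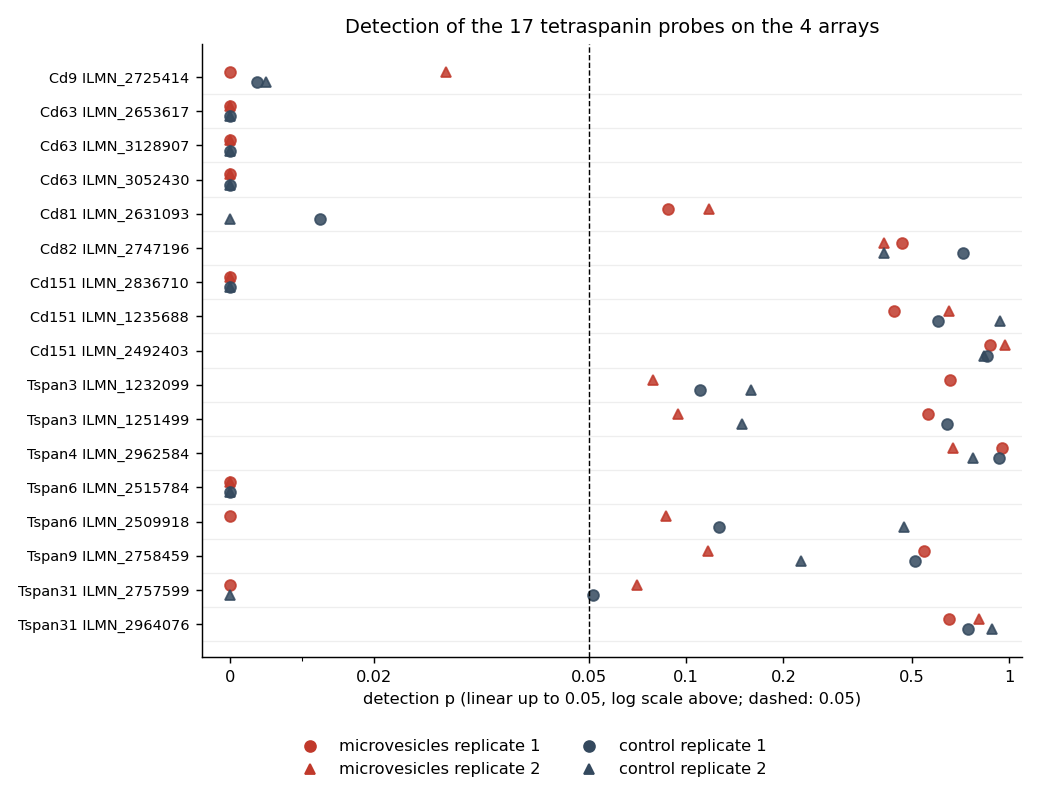
Detection p (horizontal axis, linear up to 0.05 and on a log scale above) of each of the 17 tetraspanin probes on the 2 microvesicle arrays and the 2 control arrays. The 6 probes with all points left of the dashed line at 0.05 were those of Cd9, Cd63, Cd151 and Tspan6, and Cd81 lay left of it on the control arrays only.

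None of the 10 genes passed the test of microvesicle against control fibroblasts as reported here. With limma and Benjamini-Hochberg adjustment over all 3762 probes tested, 0 of the 7 tetraspanin probes passed an adjusted p of 0.05, where 7.55% of all tested probes did (3.43% higher and 4.12% lower with microvesicles). At an unadjusted p under 0.05 there were 2, both of Cd63, against 24.8% of all tested probes. The log2 fold changes, given throughout as microvesicles minus control on normalized log2 values with an offset of 16, were positive for 6 probes and negative for the probe of Cd81, and 44% of all tested probes were positive. On the normalized scale both microvesicle arrays lay above both control arrays for 4 probes (24.9% of all tested) and below them for 1 (32.7% of all tested), that of Cd81, which had entered the test through the control arrays alone, and the groups overlapped for the other 2. With 1 probe for each gene, the brightest, the median log2 fold change of the 5 measured genes was 0.28, against -0.06 over all tested probes. Limma without the detection filter also called 0 of the 17 probes (0.113% of all 25697), with 4 of them at an unadjusted p under 0.05 (7.54% of all).

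**Figure D2:**
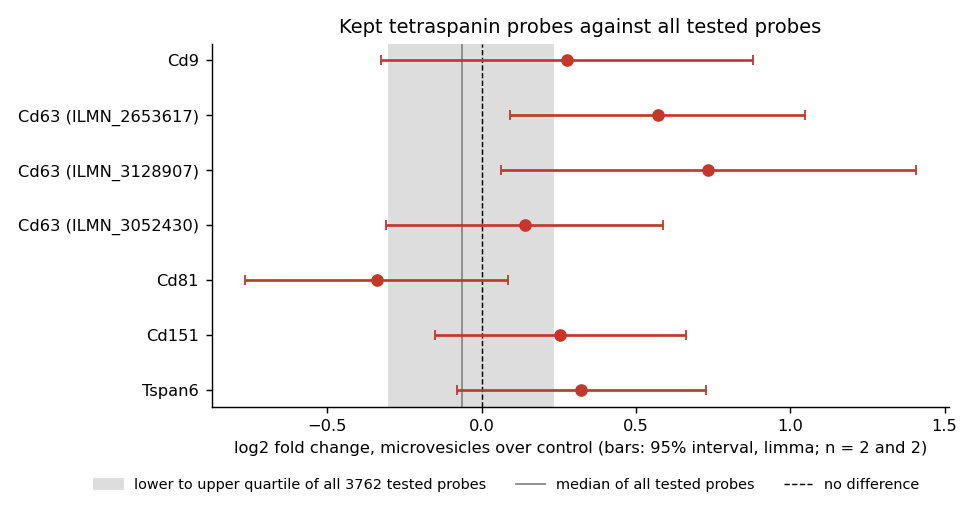
Log2 fold change of the 7 tested tetraspanin probes (microvesicles over control, horizontal axis), with the 95% interval from limma (n = 2 arrays in each group). The grey band holds the middle of all 3762 tested probes, from the lower quartile of -0.30 to the upper quartile of 0.23. The intervals of 2 Cd63 probes lay above no difference before adjustment, and the other 5 included it.

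For Cd63, Cd151 and Tspan6 the direction rested on the scaling between arrays, while Cd9 stayed positive and Cd81 negative. The reported values were brought to a common distribution by quantile normalization. When the all-probe medians were aligned in its place, 6 of the 7 probes were negative and Cd9 alone was positive, and the median over all tested probes moved to -0.39. With the medians of the tested probes aligned, 3 were positive (Cd9 and 2 probes of Cd63) and 4 negative, with a median over all tested probes of 0.05. Among all probes, 284 were called as reported, 45.4% of them higher (129 higher and 155 lower), and 353 with the tested medians aligned, 21.5% of them higher (76 and 277), with 196 probes shared. With the all-probe medians aligned, 0 of the 3762 tested probes were called. Each tetraspanin below is therefore given first as deposited and then after normalization.

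CD63 is the tetraspanin of late endosomes and secretory lysosomes, and in human cells it binds TIMP1. Cd63 had 3 probes, and all 3 were detected on all 4 arrays. The deposited signal of probe ILMN_2653617 was 1635 and 970 on the microvesicle arrays and 1292 and 2031 on the control arrays. Control replicate 2 was the brightest and microvesicle replicate 2 the dimmest, and the groups overlapped. The bead standard errors, which cover the spread of beads within an array only, were 54.7 and 44.9 with microvesicles and 59.9 and 87.3 in controls.

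After normalization the order of the arrays for this probe was different. Its log2 signal was 11.01 and 10.72 with microvesicles and 10.47 and 10.12 in controls, so that both microvesicle arrays lay above both controls. The group means were 10.87 ± 0.20 with microvesicles and 10.30 ± 0.25 in controls (SD, n = 2 each). The log2 fold change was 0.57 (95% interval 0.09 to 1.05), or 1.49-fold, and did not pass (limma adjusted p = 0.139). In the processed table that the submitters deposited, Cd63 read 1989 and 1678 on the microvesicle arrays and 1386 and 1096 on the control arrays, again without overlap.

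The second Cd63 probe, ILMN_3128907, had deposited signals of 186 and 171 with microvesicles and 192 and 216 in controls. Both microvesicle arrays were dimmer than both controls as deposited. Normalized, it was 7.63 and 8.16 with microvesicles and 7.54 and 6.78 in controls, the opposite order, with control replicate 2 well below the other arrays. The log2 fold change of Cd63 on this probe was 0.73 (95% interval 0.06 to 1.41, limma adjusted p = 0.166). It passed in 2 of the alternatives, with trend and robust variance estimation (limma adjusted p = 0.0267) and with replicate numbers crossed between groups as a block (limma adjusted p = 0.040). With each array left out in turn it ranged from 0.35 (without control replicate 2) to 1.104 (without control replicate 1) and did not pass. With all-probe medians aligned it was -0.18 (limma adjusted p = 0.685).

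The third Cd63 probe, ILMN_3052430, read 157 and 94.2 with microvesicles and 145 and 249 in controls as deposited, and the groups overlapped. Its normalized log2 signal was 7.36 and 7.01 with microvesicles and 7.09 and 7.00 in controls, still overlapping. The log2 fold change was 0.14 (95% interval -0.31 to 0.59, limma adjusted p = 0.674). The 3 probes of Cd63 thus gave 0.57, 0.73 and 0.14, with 95% intervals that overlapped from 0.09 to 0.59. Without microvesicle replicate 1 the third probe was at -0.035.

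**Figure D3:**
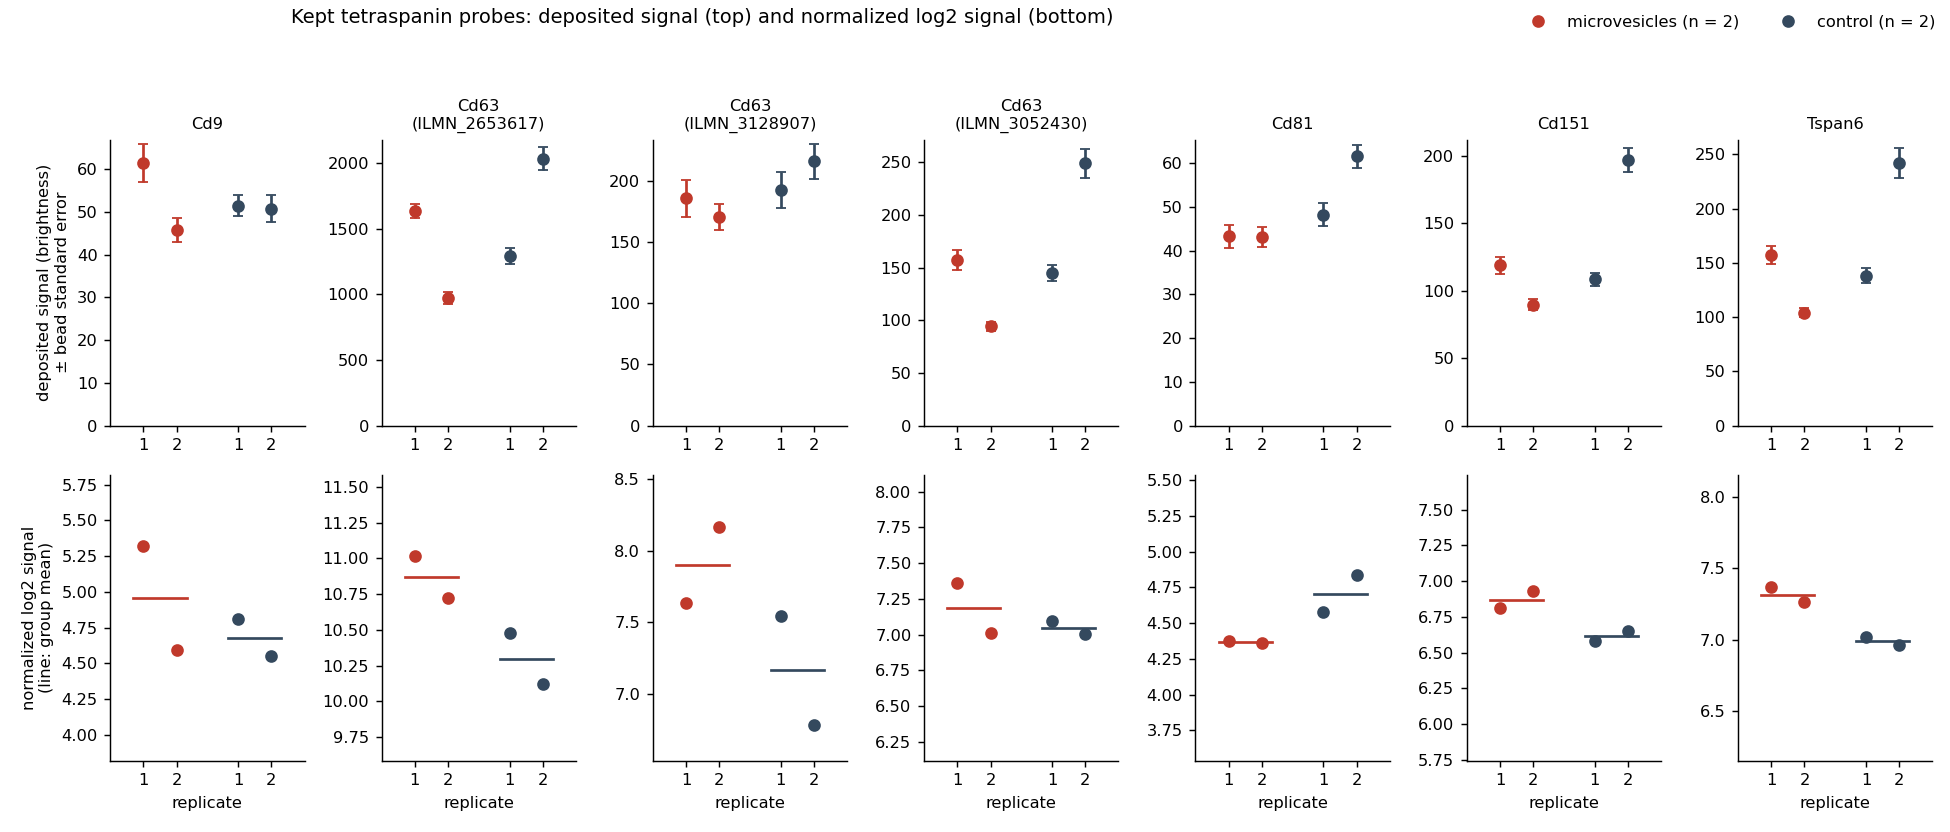
Deposited signal with its bead standard error (top row) and normalized log2 signal with group means as lines (bottom row) for the 7 tested tetraspanin probes, by replicate of microvesicle and control fibroblasts. As deposited, control replicate 2 was brightest for 6 of 7 probes and microvesicle replicate 2 dimmest for all 7, and after normalization both microvesicle arrays lay above both controls for 4 probes.

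The brightness of the arrays ran through these values. As deposited, 6 of the 7 tetraspanin probes were brightest on control replicate 2, as were 77.9% of all tested probes, and 7 of 7 were dimmest on microvesicle replicate 2, as were 71.2%. The groups overlapped as deposited in 5 of the 7. The part of array brightness in the log2 fold changes was not tested beyond the alternative scalings.

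The probes most like ILMN_2653617 of Cd63 were sought, which is a description. This Cd63 probe was taken because it had the smallest unadjusted p of the tested tetraspanin probes. Likeness was the Euclidean distance between log2 values centred on each probe's mean over the 4 arrays. Vim, which encodes the intermediate filament protein vimentin, was nearest at a distance of 0.0586, with 7.85 and 7.54 in microvesicle and 7.37 and 6.96 in control fibroblasts. Dctn2, which encodes a subunit of dynactin, followed at 0.0728, and Pabpn1, which encodes a nuclear poly(A)-binding protein, at 0.0747. The other probes of Cd63 itself stood at ranks 453 (distance 0.471, ILMN_3052430) and 1303 (0.669, ILMN_3128907). These ranks run over the other tested probes, of 3762 in all. Among so many probes some lie close over only 4 arrays whatever their gene, so nothing is read from these ranks.

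CD9 and CD81 are close relatives at the cell surface. CD9 is needed on the mouse egg for fusion with sperm. Cd9, with 1 probe, had deposited signals of 61.3 and 45.8 with microvesicles and 51.4 and 50.7 in controls, near background, with detection p of 0 and 0.030 in the microvesicle and 0.0038 and 0.0050 in the control arrays. The microvesicle arrays stood on either side of the controls. The normalized log2 signal of Cd9 was 5.32 and 4.59 with microvesicles and 4.81 and 4.55 in controls, again overlapping, with a spread of 4.96 ± 0.52 in the microvesicle and 4.68 ± 0.18 in the control group (SD, n = 2 each). Its log2 fold change was 0.28 (95% interval -0.33 to 0.88, limma adjusted p = 0.528) and moved to -0.094 without microvesicle replicate 1.

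Cd81 was the 1 measured member with lower normalized values in the treated cells, while as deposited, or with all-probe medians aligned, further members were lower too. Its single probe read 43.3 and 43.1 with microvesicles and 48.2 and 61.6 in controls as deposited. Both microvesicle arrays were below both controls, before and after normalization. The detection p of Cd81 was 0.0877 and 0.118 on the microvesicle arrays, where it was not detected, and 0.0125 and 0 on the control arrays, where it was, so that it entered the test only through the group where it was high and nothing is read from its direction. The normalized log2 signal was 4.37 and 4.36 with microvesicles and 4.57 and 4.84 in controls. On the microvesicle arrays its level has only a bound, set by the dimmest detected probes of each array. The control mean lay 1.18-fold above that bound, and this is not read as a decrease. The measured log2 fold change was -0.34 (95% interval -0.77 to 0.09, limma adjusted p = 0.295).

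CD151 binds laminin-binding integrins such as those with the alpha3 and alpha6 chains, and TSPAN6 is an endosomal tetraspanin that binds the adaptor syntenin. The measured probe of Cd151, ILMN_2836710, had deposited signals of 119 and 89.6 with microvesicles and 108 and 197 in controls. Normalized, it was 6.81 and 6.93 with microvesicles and 6.58 and 6.65 in controls, without overlap, although the deposited signals overlapped. The difference was a log2 fold change of 0.26 (95% interval -0.15 to 0.66, limma adjusted p = 0.397). The other 2 probes of Cd151 were detected on no array, at 33.3 to 39.4 in deposited signal.

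In the deposited signals Tspan6 ordered the arrays as Cd151 did. Its probe ILMN_2515784 read 157 and 104 with microvesicles and 138 and 242 in controls as deposited, and 7.37 and 7.26 with microvesicles and 7.02 and 6.96 in controls as normalized log2 signal. The deposited groups overlapped and the normalized ones did not. The log2 fold change of Tspan6 was 0.32 (95% interval -0.08 to 0.73, limma adjusted p = 0.292). Its second probe, ILMN_2509918, was detected on 1 array, microvesicle replicate 1, with 48.4 and 43.8 in microvesicle and 44.5 and 40.2 in control fibroblasts as deposited, and the groups overlapped. Without the detection filter its log2 fold change was 0.26 (limma adjusted p = 0.787). Both Cd151 and Tspan6 turned negative with all-probe medians aligned (-0.57 for Cd151 and -0.56 for Tspan6) and with the medians of the tested probes aligned (-0.13 for Cd151 and -0.12 for Tspan6).

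**Figure D4:**
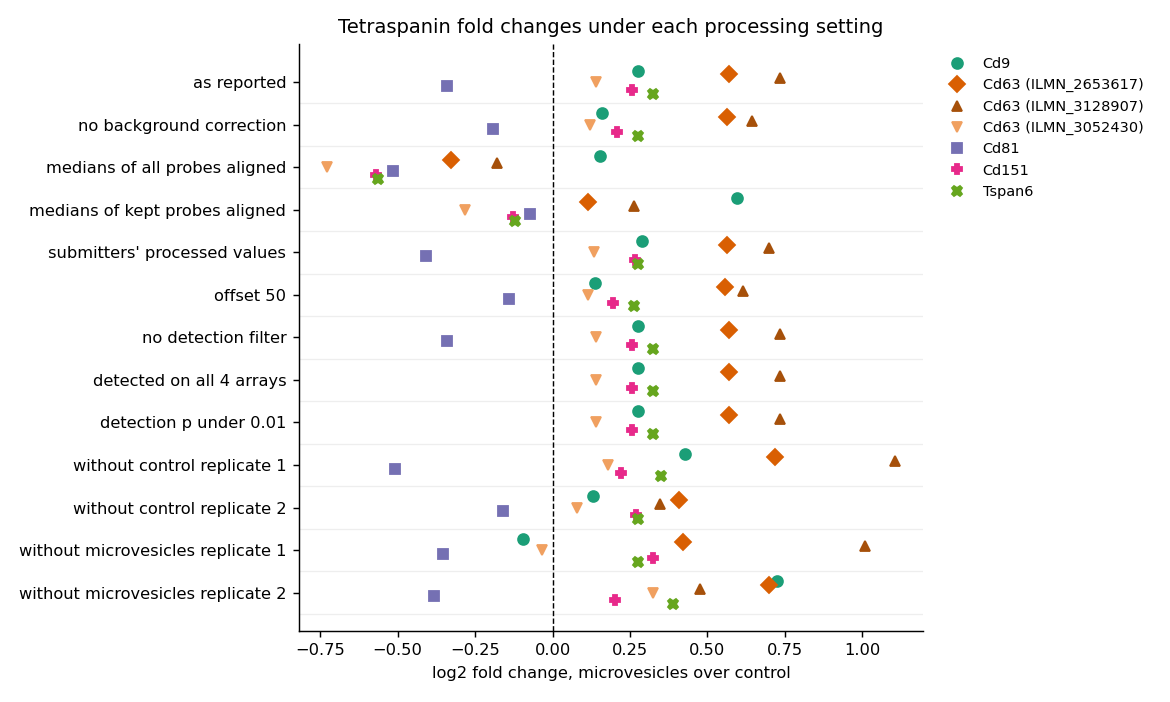
Log2 fold change (microvesicles over control) of the 7 tetraspanin probes under each processing setting except those of variance estimation and replicate blocks, with 1 symbol per probe. Settings that differ only in the detection filter repeat the reported values of the probes they tested. All probes but that of Cd9 lie left of 0 where the medians of all probes were aligned.

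The tetraspanins without a tested probe were at or near background. Tspan31, which in human sarcomas is amplified together with its neighbour CDK4, had 1 probe (ILMN_2757599) with 49.4 and 44.3 in microvesicle and 46.3 and 56.0 in control fibroblasts. It was detected on microvesicle replicate 1 and control replicate 2, that is on 1 array of each group, and the groups overlapped. Its other probe was detected on no array. The remaining members were detected nowhere. Cd82, whose human protein is known as a suppressor of metastasis, read 39.0 and 40.4 with microvesicles and 37.6 and 40.8 in controls. Tspan3, whose protein binds claudin-11, had 2 probes between 37.5 and 44.9. Tspan9, a tetraspanin of platelets, read 38.3 and 43.2 with microvesicles and 39.7 and 42.6 in controls. Tspan4, whose protein drives the growth of migrasomes, vesicles left behind by migrating cells, read 33.5 and 38.1 with microvesicles and 34.6 and 37.4 in controls. The median signal of all probes was 39.9 and 40.2 on the microvesicle arrays and 41.1 and 41.2 on the control arrays. On arrays this dim, a probe that was not detected does not show that the transcript was absent.

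Measured and unmeasured tetraspanins can lie close together in the genome. Cd151 and Tspan4 are both on chromosome 7, with 1 protein-coding gene between them. Of the 3 Cd151 probes, 1 was detected on all 4 arrays and 2 on none, and the single Tspan4 probe was also detected on none. The first RefSeq promoter window of each gene, 250 bases before to 50 after the start on GRCm38.p6, is shown because these members of the family lie nearest each other. The Cd151 window is chr7:141467112-141467411 and the Tspan4 window chr7:141474986-141475285, both on the plus strand. Capitals mark GC boxes, the letters GGGCGG on either strand, which reads CCGCCC on the other one.
Cd151: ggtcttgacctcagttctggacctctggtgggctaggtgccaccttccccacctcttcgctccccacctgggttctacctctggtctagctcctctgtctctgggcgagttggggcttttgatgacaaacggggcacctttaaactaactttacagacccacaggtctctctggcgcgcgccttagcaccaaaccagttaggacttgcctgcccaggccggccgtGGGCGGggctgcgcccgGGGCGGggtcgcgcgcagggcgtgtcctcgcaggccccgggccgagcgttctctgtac
Tspan4: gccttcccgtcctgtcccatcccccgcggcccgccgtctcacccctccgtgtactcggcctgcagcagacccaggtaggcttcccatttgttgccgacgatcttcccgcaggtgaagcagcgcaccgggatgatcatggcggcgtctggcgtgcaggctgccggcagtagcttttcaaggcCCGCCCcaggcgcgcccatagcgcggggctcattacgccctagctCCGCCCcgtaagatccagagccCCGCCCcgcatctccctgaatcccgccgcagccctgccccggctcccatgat

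The Cd151 window held 2 GC boxes and 64.3% G and C, and the Tspan4 window 3 GC boxes and 68.7% G and C. All 10 members matched the RefSeq table, with 18 windows in all. In the first window of each, a GC box was found for 3 of the 5 genes with a tested probe and for 3 of the 5 without, against 35.7% of all 32851 windows in the table. The share of G and C in these windows had a median of 61.3% (38.3% to 65.7%) for genes with a tested probe and 60.7% (48.3% to 73.3%) for those without, against 52.7% over all windows. The lowest was that of Tspan6 and the highest that of Tspan9. The letters CCAAT were found in 2 of the 10 first windows, those of Tspan3 and Tspan31 (37.4% of all windows), TATAAA in 1, that of Cd81 (13.6%), and CACGTG in none (7.15%), on either strand, and none of these motifs contains another. A match of letters is a description and not a binding site.

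Other tetraspanins were mostly below detection too. Of 21 further family members listed, 19 were on the array, 12 of them were detected on no array, and 1, Tspan17, had probes in the test. These were 2 of the 25 probes of the list. Among all probes on the array, 69.2% were detected on none and 14.6% were tested, so low detection was not particular to this list. Of all tested probes, 7.55% passed. TSPAN17 belongs to the subgroup of tetraspanins that escort the protease ADAM10 to the surface. Its probe ILMN_2817714 read 260 and 191 with microvesicles and 657 and 1306 in controls as deposited, and 8.21 and 8.37 with microvesicles and 9.58 and 9.55 in controls as normalized log2 signal. The groups did not overlap on either scale. Tspan17 fell by 1.27 on this probe (SE 0.18, limma adjusted p = 0.0078), while its other tested probe, ILMN_2664884, had a log2 fold change of -0.39 (limma adjusted p = 0.394) and overlapping groups. Tspan17 on the first probe was negative in every setting, from -2.14 to -1.16, and did not pass with all-probe medians aligned (-2.14) or when any 1 array was left out (-1.37 to -1.16).

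Partners of tetraspanins were listed as integrins, immunoglobulin-family proteins, proteases and adaptors known to bind or work with them. Of 35, 33 were on the array and 11 had a probe in the test (12 probes). Of these 11 genes, 1 rose, 0 fell and 10 did not pass, where a gene counted if any of its probes passed. Among all tested probes, counted singly, 7.55% passed. The median log2 fold change of the list was 0.06, against -0.06 over all tested probes. The 1 that rose was Cd47, which encodes the integrin-associated protein that signals "do not eat me" to phagocytes. Its normalized log2 signal was 7.94 and 7.73 with microvesicles and 7.01 and 6.94 in controls, without overlap, while the deposited signals overlapped at 231 and 136 with microvesicles and 137 and 240 in controls. The log2 fold change of Cd47 was 0.86 (SE 0.18, limma adjusted p = 0.0321), which moved to 0.0078 with all-probe medians aligned and did not pass there. It also did not pass with the tested medians aligned (0.45, limma adjusted p = 0.378) or without the detection filter (limma adjusted p = 0.105). The partner gene Gpc1 fell just short of passing at -0.87 (limma adjusted p = 0.0505), with groups that did not overlap as deposited or normalized. The integrin chain gene Itgb1 had a log2 fold change of -0.32 (limma adjusted p = 0.345) and the syntenin gene Sdcbp of 0.10 (limma adjusted p = 0.773). The direct partner genes of CD9 and CD81, Igsf8 and Ptgfrn, the integrin chain genes Itga3 and Itga6 that pair with CD151, and Adam10 were detected on no array.

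Genes of vesicle formation and release were the second list of related genes. Of 58 listed, 57 were on the array and 20 had a probe in the test (25 probes). Of these 20 genes, again counted if any probe passed, 2 rose, 2 fell and 16 did not pass. Among all tested probes, counted singly, 3.43% were higher and 4.12% lower. The median log2 fold change of the list was 0.05. Rab7, which encodes the GTPase that carries late endosomes to lysosomes, rose by 1.30 on 1 probe (limma adjusted p = 0.0383) and by 1.26 on the other (limma adjusted p = 0.0188). On the brighter probe the normalized log2 signal of Rab7 was 7.61 and 7.22 with microvesicles and 5.68 and 6.54 in controls, without overlap, whereas the deposited signals overlapped. Neither Rab7 probe passed without the detection filter (limma adjusted p = 0.451 and 0.217), and the first did not with an offset of 50 (limma adjusted p = 0.0791). Hspa8, which encodes a chaperone found in exosomes, averaged 9.84 ± 0.22 with microvesicles and 8.18 ± 0.083 in controls on 1 probe (SD, n = 2 each) and rose there by 1.66 (limma adjusted p = 0.0049). The normalized groups of this probe did not overlap, whereas the deposited ones did, at 879 and 505 with microvesicles and 292 and 529 in controls. The other probe of Hspa8 was dim, at 53.6 and 44.0 with microvesicles and 58.0 and 72.5 in controls as deposited. It was detected on both control arrays and 1 microvesicle array, and so entered the test through the controls alone. Its log2 fold change was -0.43 (limma adjusted p = 0.278), and nothing is read from its direction.

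Sdc3 and Flot2 fell in the same list. Sdc3, which encodes a syndecan, a heparan sulfate proteoglycan whose cytoplasmic tail binds syntenin, read 7.21 and 6.78 with microvesicles and 8.61 and 8.56 in controls as normalized log2 signal. Sdc3 fell by 1.59 (SE 0.20, limma adjusted p = 0.0062), and its groups did not overlap as deposited either, at 146 and 84.6 with microvesicles and 356 and 720 in controls. Flot2, which encodes the membrane raft protein flotillin-2, fell by 1.05 on 1 probe (limma adjusted p = 0.0375), and its other probe was at -0.88 (limma adjusted p = 0.0938), or -0.47 without control replicate 1. With an offset of 50 the first Flot2 probe did not pass (limma adjusted p = 0.0649). None of Tspan17, Cd47, Rab7, Hspa8, Sdc3 or Flot2 passed with all-probe medians aligned, where 0 of all probes passed. With 1 array left out, 1 group held a lone array, so only the size of the change is given for those fits. On the probes called as reported the changes kept direction with all-probe medians aligned and with any 1 array left out. With all-probe medians aligned, Sdc3 was at -2.44, Flot2 at -1.93 and Hspa8 at 0.85, but Rab7 shrank to 0.43 and 0.58 and Cd47 to 0.0078. With 1 array left out, Sdc3 ranged from -1.83 to -1.38, Flot2 from -1.30 to -0.81 and Hspa8 from 1.47 to 1.79. Without the detection filter, where 29 of all probes passed, Sdc3, Flot2 and Hspa8 did not pass (limma adjusted p = 0.0971, 0.34 and 0.0689). The called Tspan17 probe passed there (limma adjusted p = 0.0495). The endosomal sorting genes Hgs (0.13) and Vps28 (0.10) were tested and did not pass, and Tsg101 was detected on no array.

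**Figure D5:**
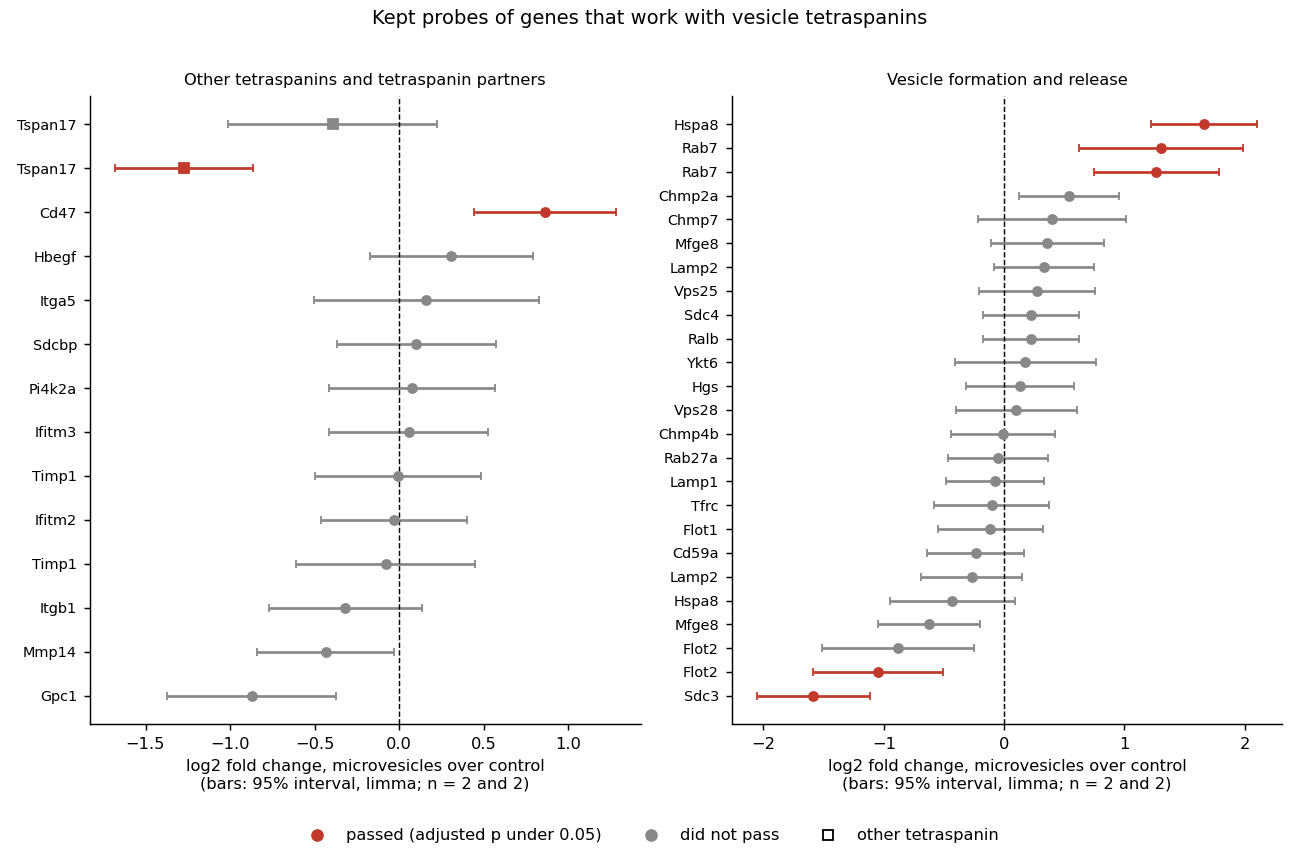
Log2 fold change with its 95% interval from limma (microvesicles over control, n = 2 arrays in each group) for every tested probe of the other tetraspanins (squares) and tetraspanin partners (left) and of vesicle formation and release (right). Red marks probes that passed an adjusted p of 0.05, namely 1 probe of Tspan17, Cd47, 1 probe of Hspa8, both of Rab7, 1 of Flot2 and Sdc3.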

How the data were processed

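Total RNA of NIH-3T3 fibroblasts, 2 samples given cardiomyocyte microvesicles and 2 controls, had been amplified and run on Illumina bead arrays with Cy3 label. The submitters' processing notes name BeadStudio 3.3. The deposited table held non-normalized intensity values (mean bead brightness), the count of beads behind each, their standard error and a detection p-value. The count of beads had a median of 40 to 41 per probe. A second deposited table held processed intensity values, linear and background-subtracted, whose medians were 0.855 to 0.857. The sources used here do not give how the authors normalized them.

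The background was corrected with a normal-exponential model fitted through the detection p-values, 16 was added, and quantile normalization and log2 followed (the steps of neqc, limma 3.58.1, R 4.3.3). The offset compresses differences between dim probes. Where both arrays of a group had detection p under 0.05 for a probe, it was tested (3762 of 25697) with lmFit and eBayes with no term but group. P-values were two-sided and adjusted by the Benjamini-Hochberg method, and 0.05 was the limit. Bounds for undetected probes used the lowest signal among detected probes of each array. The steps were tested on simulated data. The platform annotation gave 1 symbol to 23978 probes and none to 1719. Promoter windows came from RefSeq (GRCm38.p6).

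The members and gene lists were chosen with earlier results of these data known. Every member probe was described, and from each other list the members that passed. Itgb1, Sdcbp, Hgs, Vps28 and the undetected partners were named for their known roles after their values were seen. Gpc1 was named for its value. Alternatives covered background correction, scaling, offset, detection filter, variance estimation, threshold, replicate blocks and leaving out each array. With 4 arrays the precision of each value is low. Array values over the tested probes correlated with r of 0.974 between microvesicle arrays, 0.976 between controls and 0.926 to 0.938 between groups.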

Additional observations from a re-analysis of the deposited data

How the results depend on the processing

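Of 103 fits of the 7 tetraspanin probes under alternatives, 91 kept their direction and did not pass, 2 passed and 10 changed sign. Settings of the detection filter, variance estimation and replicate blocks leave the log2 fold change as reported, so no sign could change in those fits. The same holds for the other named probes below. The count of tetraspanin probes that passed was 0 as reported, 1 with trend and robust estimation and 1 with the crossed replicate block, which was chosen after the data had been seen because the deviations of same-numbered arrays correlated at -0.133. Both calls were the Cd63 probe ILMN_3128907 at 0.73. The labels' replicate number as a block (replicate block) called 0 tetraspanin probes and 313 probes in all. With the medians of all probes aligned, Cd63 was at -0.33 (ILMN_2653617), -0.18 (ILMN_3128907) and -0.73 (ILMN_3052430), Cd151 at -0.57 and Tspan6 at -0.56. With the medians of the tested probes aligned, a fit whose probes all shared 1 standard error of 0.30, Cd63 was at -0.28 (ILMN_3052430), Cd151 at -0.13 and Tspan6 at -0.12. With each array left out in turn, Cd9 ranged from -0.094 to 0.72, Cd63 (ILMN_3052430) from -0.035 to 0.32 and Tspan17 (ILMN_2664884) from -0.80 to 0.011, and the sign changed without microvesicle replicate 1 for Cd9 and Cd63 and without control replicate 2 for Tspan17. The median of the measured tetraspanins was 0.28 as reported, -0.52 and -0.07 with these scalings, 0.21 without background correction and 0.19 with an offset of 50. Over all probes, 284 passed as reported, 0 with the medians of all probes aligned (398 unadjusted), 29 with no detection filter (14 higher, 15 lower), 593 with trend and robust estimation and 67 at an adjusted p of 0.01. Leaving out 1 array gave 0 to 10. Those fits took the spread of a lone array from the other group and tested 4600 to 5464 probes. Of 149 fits of the other named probes, 100 kept direction and side, 44 lost the call, 4 gained it and 1 changed sign. The low brightness limits Cd9, Cd81 and the undetected members most.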
